A study of Mus musculus with 17 samples.

Results

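The mitochondrial ribosomal protein genes were taken as every symbol of the count table that starts with Mrpl or Mrps followed by a digit, without pseudogene symbols holding -ps, at a mean of at least 1 CPM, the unit of counts scaled to a common library total, over all libraries. This gave 78 of 27240 symbols, 49 named Mrpl and 29 named Mrps. CD8 T cells had been sorted by FACS from mouse lung tumours and sequenced as bulk RNA in 17 libraries. There were 6 libraries of KO core, 5 of WT core, 4 of KO rim and 2 of WT rim. KO stands for mice lacking PD-L1 in the endothelium (PDL1DEC mice), and WT for mice that keep it. Core means core-enriched tissue, taken from macroscopic nodules, and rim means rim-enriched tissue, taken from parenchymal nodules. The sources used here do not give the Cre driver, the alleles behind the deletion, the tumour model or the age of the mice. One WT core library is a pool, and the labels do not say whether the others stem from different animals. P-values therefore measure a difference against the spread between libraries, which may be technical.

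Mitochondria carry their own ribosome, which translates the few mRNAs of the mitochondrial genome into core subunits of the respiratory chain and ATP synthase. Its RNAs are made in the mitochondrion, but every one of its proteins is encoded in the nucleus, made in the cytosol and imported. The large subunit joins amino acids and holds the exit tunnel, and the small subunit reads the mRNA. Some of the proteins have relatives in bacterial ribosomes, while others are found only in mitochondria. Activated T cells are known to raise mitochondrial translation as they start to divide.

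By their known places in the mammalian ribosome, 51 members belonged to the large subunit and 26 to the small one. Mrps18a and Mrps30 were counted with the large subunit, where both proteins sit in spite of their names. Mrps36 was counted with neither, since its product is known as a component of the 2-oxoglutarate dehydrogenase complex. A bacterial relative is known for 48 members, and 29 are specific to mitochondria. The members lay on 17 chromosomes, with 11 of them on chromosome 11. No symbol of the name rule without -ps fell below the level threshold: the lowest member was Mrps30 at a mean of 3.998 CPM, followed by Mrpl47 at 11.3 CPM. The 5 pseudogene symbols set aside averaged 0.140 CPM (Mrps36-ps2), 0.580 CPM (Mrpl27-ps), 0.771 CPM (Mrps36-ps1), 1.52 CPM (Mrpl23-ps1) and 2.30 CPM (Mrpl48-ps). Reads of a pseudogene and its parent gene can be split between them, so the levels of Mrps36, Mrpl27, Mrpl23 and Mrpl48 are uncertain. The pseudogenes' own CPM does not give the size of that uncertainty.

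Promoter windows of RefSeq (GRCm38.p6, 250 bases before to 50 after the start of the gene) were available for 69 of the 78 members, in 75 windows, since some genes have more than 1. A motif was counted once per gene, in any of its windows. The windows of the 4 members that differed between WT core and WT rim, and of Mrpl33, the member with the highest level per length, are shown 5′ to 3′ to show what stands at the starts of these genes. Capitals mark the letters of a searched motif.
Mrps14 (chr1:160194965-160195264, plus strand): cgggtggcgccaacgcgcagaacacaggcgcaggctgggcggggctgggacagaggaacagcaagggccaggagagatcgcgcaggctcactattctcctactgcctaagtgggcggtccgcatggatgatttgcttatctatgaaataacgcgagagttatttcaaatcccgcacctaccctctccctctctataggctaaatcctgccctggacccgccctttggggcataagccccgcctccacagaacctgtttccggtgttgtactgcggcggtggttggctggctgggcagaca
Mrps6 (chr16:92058086-92058385, plus strand): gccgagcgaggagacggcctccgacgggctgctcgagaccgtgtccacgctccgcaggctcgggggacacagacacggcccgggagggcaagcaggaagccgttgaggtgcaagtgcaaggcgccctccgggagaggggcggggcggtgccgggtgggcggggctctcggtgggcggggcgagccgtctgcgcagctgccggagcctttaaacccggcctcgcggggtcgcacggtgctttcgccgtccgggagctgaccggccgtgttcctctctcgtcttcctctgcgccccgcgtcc
Mrpl51 (chr6:125191950-125192249, plus strand): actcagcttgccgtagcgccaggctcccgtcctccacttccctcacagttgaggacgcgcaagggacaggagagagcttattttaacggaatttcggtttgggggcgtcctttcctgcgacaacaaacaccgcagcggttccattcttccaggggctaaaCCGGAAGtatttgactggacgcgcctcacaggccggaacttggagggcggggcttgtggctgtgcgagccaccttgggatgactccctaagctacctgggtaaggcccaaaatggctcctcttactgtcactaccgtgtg
Mrpl42 (chr10:95501900-95502199, minus strand): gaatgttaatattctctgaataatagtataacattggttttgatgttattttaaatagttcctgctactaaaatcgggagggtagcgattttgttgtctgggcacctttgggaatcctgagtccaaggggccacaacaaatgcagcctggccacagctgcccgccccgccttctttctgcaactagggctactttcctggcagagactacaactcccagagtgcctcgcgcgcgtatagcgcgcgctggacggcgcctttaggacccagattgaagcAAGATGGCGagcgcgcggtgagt
Mrpl33 (chr5:31613701-31614000, plus strand): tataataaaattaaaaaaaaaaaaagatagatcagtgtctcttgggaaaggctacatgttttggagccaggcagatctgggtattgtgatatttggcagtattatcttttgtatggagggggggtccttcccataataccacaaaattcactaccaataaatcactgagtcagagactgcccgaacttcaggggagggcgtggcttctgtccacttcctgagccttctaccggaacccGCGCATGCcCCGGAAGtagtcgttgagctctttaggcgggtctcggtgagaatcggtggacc
Searched on both strands were GCGCATGC, bound by nuclear respiratory factor 1 (NRF1), CCGGAAG, bound by ETS family factors such as GABP, AAGATGGCG, bound by YY1, and the E-box CACGTG, bound by MYC and related factors. In no member's window did the letters of 2 of these motifs overlap. Mrpl33 held the NRF1 letters starting 12 bases before the start and the ETS letters starting 3 bases before it. In Mrpl51 the ETS letters began 90 bases before the start, and in Mrpl42 the YY1 letters began at base 28 of the gene. The windows of Mrps14 and Mrps6 held none of the 4 motifs, and the Mrps6 window had the highest GC content of the 5 shown (73.7%, against 47% in Mrpl33).

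Over the 69 members with a window, the ETS letters were the most frequent of the 4, in 26 members (37.7%), against 13.6% of the 17799 genes of the table with a window. The YY1 letters stood in 8 members (11.6%), against 2.27% of all genes. NRF1 letters were also in 8 members (11.6%), among them Mrpl10, Mrpl17, Mrpl22 and Mrpl32, against 4.14% of all genes. The E-box was in 5 members (7.25%), against 9.65% of all genes. At least 1 of the NRF1, ETS and YY1 motifs was in 36 members (52.2%), against 18.5% of all genes. The genes of the table were not matched to the members by level or type of gene. A match says only that the letters are there.

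**Figure D1:**
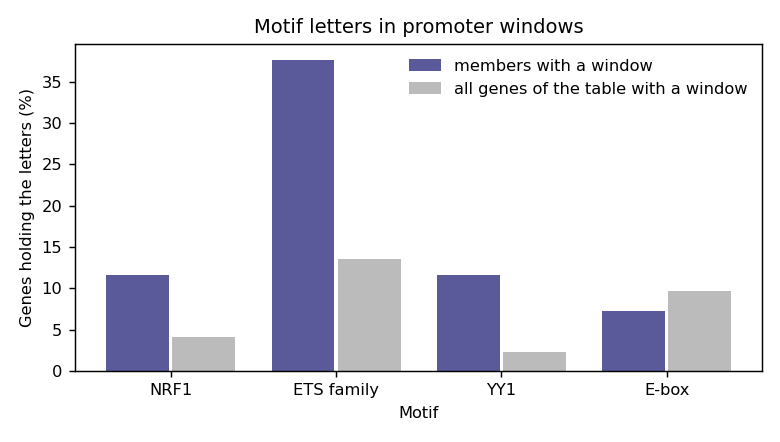
Percentage of genes whose promoter window of 300 bases holds each motif on either strand, for the 69 members with a window and for all 17799 genes of the table with one. The bars of the members are higher than those of all genes for NRF1 (11.6% against 4.14%), ETS (37.7% against 13.6%) and YY1 (11.6% against 2.27%), and lower for the E-box (7.25% against 9.65%).

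Some of the members also have features of position in common. In the GENCODE annotation of GRCm38, 20 members (25.6%) had a divergent neighbour. This is a gene on the opposite strand that starts within 1000 bases upstream and runs the other way. The share was 9.86% among the 16517 protein-coding genes of the table. Mrpl51 and Ncapd2, a condensin subunit, start 100 bases apart, Mrpl57 and Ska3 start 49 bases apart, and Mrps12 and Sars2, the mitochondrial seryl-tRNA synthetase, start 172 bases apart. Exon bases were shared with another gene of the table by 18 members, on the same strand for 2 of them. The share over all genes was not counted. Mrps6 shares 159 bases with Slc5a3, a myo-inositol transporter, and Mrpl51 shares 87 bases with Mir3098. On the opposite strand the longest shared stretches were 3533 bases between Mrps25 and Nr2c2 and 1962 bases between Mrpl19 and Gcfc2. Other shared stretches were short, such as 8 bases for Mrps26 and 17 bases for Mrpl18. The sources used here do not say how the authors' counting treated strand and shared bases. Reads of the shared bases therefore cannot be told apart, and the levels of these genes are uncertain to that extent.

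Library totals lay between 21767045 and 32566456 counts. No member had fewer than 51 counts in any library. Counting error was not set beside the spread between libraries, and it weighs most on members with few counts, such as Mrps30. All 78 members passed the filter on low counts. Together they took 0.303% to 0.368% of the counts in KO core, 0.328% to 0.362% in WT core, 0.278% to 0.318% in KO rim and 0.274% to 0.292% in WT rim. All 9 T cell and CD8 markers, such as Cd3e and Cd8a, were detected in every library, with a summed level of 4790 to 9417 CPM. Macrophage markers summed to 538 to 6614 CPM, B and plasma markers to 193 to 3881 CPM, and epithelial markers to 39.8 to 1012 CPM. RNA typical of other cell types was thus present. Of the 9 macrophage markers, Marco had no count in 5 libraries and the others were detected in all, and of the epithelial ones Nkx2-1 had no count in 13 libraries. In bulk libraries, fewer cells of a type and less RNA per cell cannot be told apart. Xist and Y-linked counts showed 4 KO libraries, F322 and O at both sites, to be male and the WT core pool to be mixed.

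Levels were compared between members per kb of the principal transcript. Over the 17 libraries the median member stood at 27.99 CPM per kb, with quartiles of 15.4 and 42.8 CPM per kb. The highest was Mrpl33, a large-subunit protein with a bacterial relative, at 188 CPM per kb. It was followed by Mrpl42 (108 CPM per kb), Mrpl18 (82.6 CPM per kb), Mrpl4, which in bacteria lines the exit tunnel (78.2 CPM per kb), and Mrps18c (77.3 CPM per kb). The lowest were Mrps30 (1.204 CPM per kb), Mrpl47 (3.37 CPM per kb), Mrps25 (4.33 CPM per kb), Mrpl17 (5.32 CPM per kb) and Mrpl48 (6.50 CPM per kb). Transcripts of proteins that sit in 1 complex thus spanned 156.2-fold on this scale. The median was 29.6 CPM per kb for large-subunit members and 20.6 CPM per kb for small-subunit members, and 31.5 CPM per kb for members with a bacterial relative and 19.98 CPM per kb for those specific to mitochondria.

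**Figure D2:**
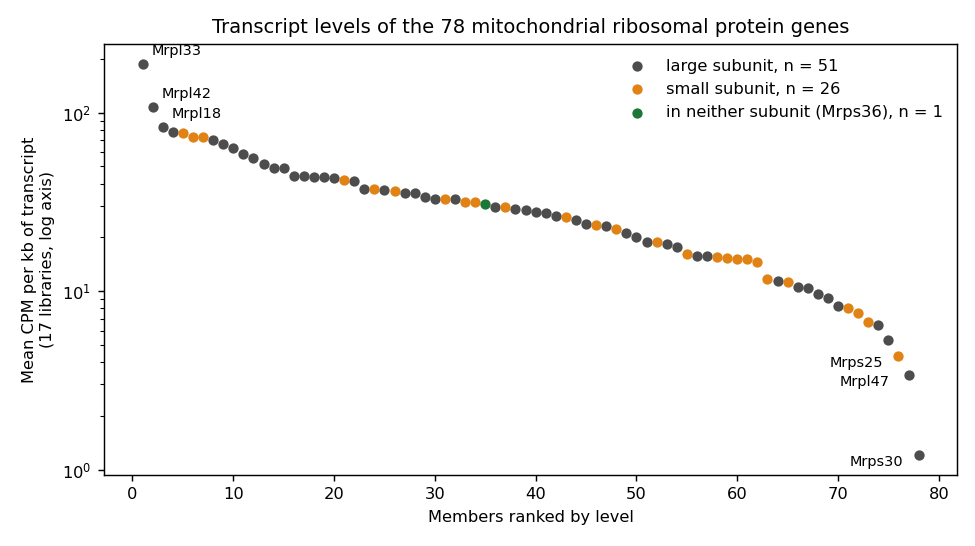
Mean level over the 17 libraries of each of the 78 members, in CPM per kb of the principal transcript on a log axis, against its rank, with colour giving the subunit. Mrpl33 stands at the top with 188 CPM per kb and Mrps30 at the bottom with 1.204 CPM per kb, and both belong to the large subunit, while the small-subunit members lie between 4.33 CPM per kb (Mrps25) and 77.3 CPM per kb (Mrps18c).

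Most members varied little between libraries. The coefficient of variation of CPM over all 17 libraries had a median of 16.9% (quartiles 14.1% and 20.5%). For the 8461 tested genes within the members' range of mean CPM it was 29.6% (20.7% and 44.5%). Those genes were not matched to the members by level within that range. The steadiest members were Mrpl4 (8.11%), Mrps23 (9.30%), Mrps7 (9.83%), Mrpl18 (10.1%) and Mrpl21 (10.2%). The most variable members were Mrps24 (63.5%), which encodes the mitochondrial uS3 protein, Mrps26 (37.5%), Mrps30 (34.5%), Mrps6 (31.8%) and Mrpl14 (29.5%).

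The common level of the members was described by their median log2 CPM in each library. Its mean was 5.29 ± 0.101 in KO core (SD, n = 6), 5.32 ± 0.0619 in WT core (n = 5), 5.15 ± 0.0857 in KO rim (n = 4) and 5.13 ± 0.108 in WT rim (n = 2). The order was WT core, KO core, KO rim, WT rim. The difference between the core groups and that between the rim groups were within 1 SD, while both core means lay above both rim means by more than the pooled SD within groups (0.0878). Single libraries still overlapped between the sites: the lowest in KO core was 5.21 and the highest in KO rim 5.23. In WT, the 5 core libraries (5.24 to 5.39) lay above the 2 rim libraries (5.05 and 5.20).

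**Figure D3:**
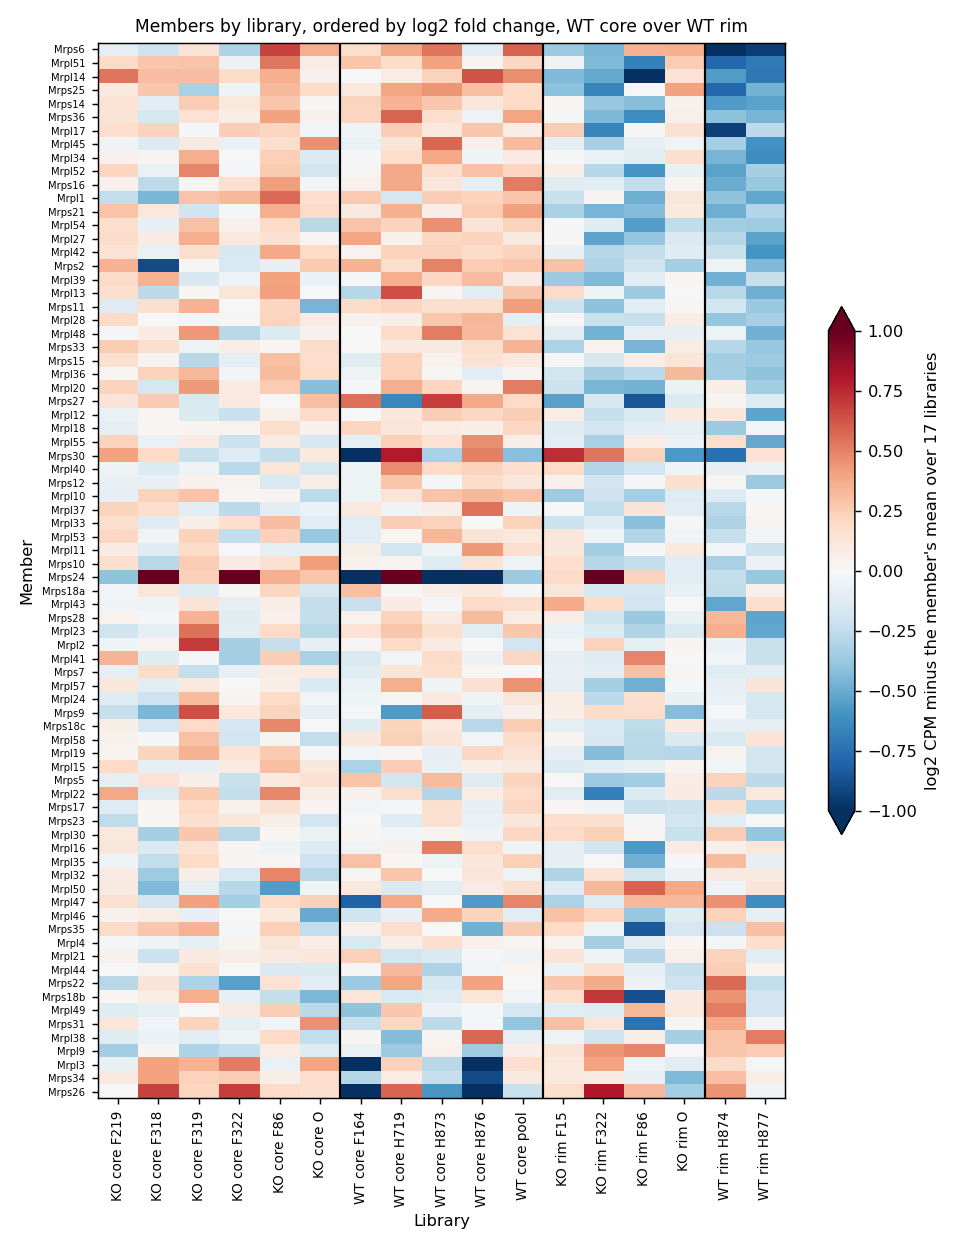
Each of the 78 members (lines) in each of the 17 libraries (columns, grouped as KO core, WT core, KO rim and WT rim), coloured by log2 CPM minus the member's mean, with the scale ending at 1 in both directions. Members are ordered by log2 fold change of WT core over WT rim. Mrps6, Mrpl51 and Mrpl14 lead at the top, and Mrps24, Mrpl3 and Mrps26 are pale or dark by single libraries, mostly of WT core.

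Mitochondrial ribosomal protein transcripts were higher in WT core than in WT rim for 4 members: Mrps14, Mrps6, Mrpl51 and Mrpl42. No member was lower. The 4 are 5.13% of the members, against 3.86% of the 20137 genes tested that were called in either direction, 2.1% called higher and 1.76% called lower. A call means an adjusted p under 0.05 from edgeR's quasi-likelihood F test with Benjamini-Hochberg adjustment over all genes tested. The 4 members come from both subunits and both ancestries.

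Mrps14, a protein of the head of the small subunit with a bacterial relative, had 108, 118, 111, 100.1 and 106 CPM in the WT core libraries, against 62.5 and 63.7 CPM in WT rim. Its level in KO ran between 85.7 and 112 CPM in core (median 100.4), against 93.3, 71.0, 68.7 and 95.4 CPM in rim. The 2 WT rim libraries were the lowest of all 17, and every WT core library was above every library of either rim group. Its log2 fold change in WT core over WT rim was 0.78 (SE 0.151, edgeR adjusted p = 0.0113). The gene spans chr1:160195215-160201186 on the plus strand, and its window is the first of those shown above.

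Mrps6, a platform protein of the small subunit that also has a bacterial relative, had the largest difference. It had 37.8, 43.5, 48.3, 30.9 and 50.2 CPM in WT core, against 15.9 and 17.4 CPM in WT rim (log2 fold change 1.34, SE 0.311, edgeR adjusted p = 0.0261). KO libraries had 26.9 to 53.3 CPM in core (median 34.01), against 25.95, 24.3, 42.6 and 42.7 CPM in rim. Both WT rim libraries again stood below the other 15. Slc5a3, which shares exon bases with Mrps6, had 34.3, 29.0, 30.5, 10.97 and 20.4 CPM in WT core, against 39.4 and 21.9 CPM in WT rim (log2 fold change -0.29, SE 0.457, edgeR adjusted p = 0.803).

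Mrpl51, a mitochondria-specific protein of the large subunit, had 41.8, 39.2, 45.5, 35.2 and 39.8 CPM in WT core, against 19.97 and 21.2 CPM in WT rim (log2 fold change 0.97, SE 0.229, edgeR adjusted p = 0.0283). In KO it had 33.2 to 49.6 CPM in core (median 40.7), against 33.6, 25.4, 21.6 and 41.0 CPM in rim. The WT groups did not overlap, and the KO groups did. Its divergent neighbour Ncapd2 had 61.4, 134, 123, 77.9 and 106 CPM in WT core, against 46.2 and 53.5 CPM in WT rim (log2 fold change 1.01, SE 0.313, edgeR adjusted p = 0.0855).

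Mrpl42, another mitochondria-specific protein of the large subunit, had 72.2, 82.8, 82.9, 80.6 and 82.3 CPM in WT core, against 60.5 and 46.7 CPM in WT rim. Its log2 fold change was 0.58 (SE 0.151, edgeR adjusted p = 0.0415). KO core had 63.2 to 92.0 CPM (median 78.3), against 66.96, 57.9, 59.8 and 64.8 CPM in KO rim. The WT groups stood apart, and the KO groups overlapped in 1 KO core and 2 KO rim libraries.

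**Figure D4:**
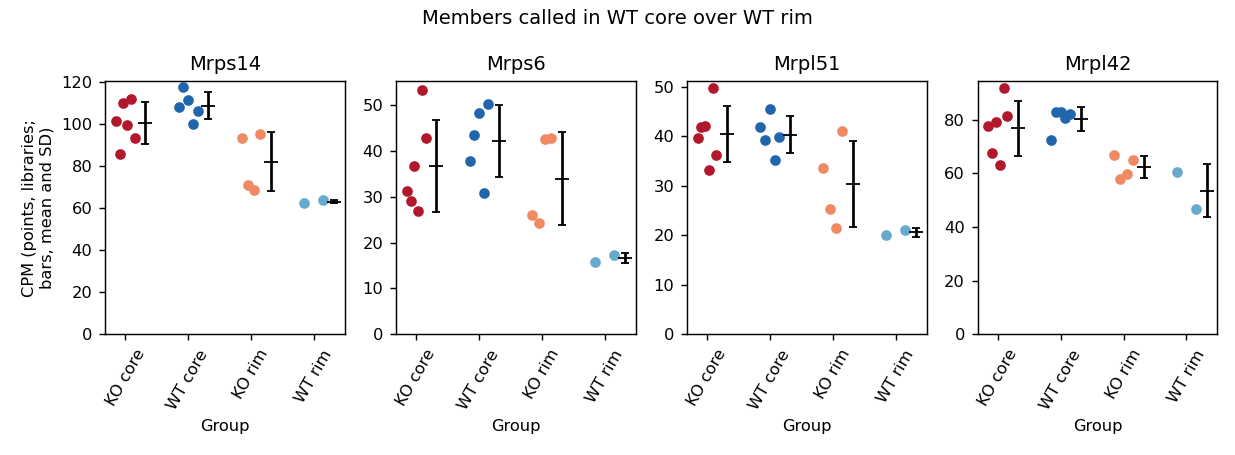
CPM in each library (points) with the group mean and SD (bars) for Mrps14, Mrps6, Mrpl51 and Mrpl42 in KO core, WT core, KO rim and WT rim, on axes that start at 0. In each panel the WT rim mean is the lowest of the 4, and some KO rim libraries lie within the range of KO core.

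Around these 4, the other members leaned the same way. In WT core over WT rim, 60 of 78 fold changes were positive, with a median log2 fold change of 0.19, against 0.03 over all genes tested. An unadjusted p under 0.05 was reached by 25 members higher (32.1%), against 9% of all genes, and by 1 lower (1.28%), against 8.96%. All WT core libraries were above both WT rim libraries for 27 members (34.6%), against 10.1% of all genes, and below them for 1 member, Mrpl9 (1.28%), against 9.68%. The median was 0.22 for large-subunit and 0.19 for small-subunit members.

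Mrpl45, which anchors the ribosome at the inner membrane by its tunnel exit, came next by p. It had 40.5, 46.5, 63.2, 44.0 and 52.9 CPM in WT core, against 33.4 and 27.9 CPM in WT rim (log2 fold change 0.69, SE 0.198, edgeR adjusted p = 0.0646). Mrps16, a small-subunit protein with a bacterial relative, stood at 0.65 (SE 0.191, adjusted p = 0.0709), and Mrps36 one of 0.71 (SE 0.235, adjusted p = 0.104). The stalk proteins Mrpl10 and Mrpl12, which call translation factors to the ribosome, had 0.27 and 0.34, and Mrpl11 at the base of the stalk 0.22. The 3 Mrps18 forms had 0.19 (Mrps18a), -0.18 (Mrps18b) and 0.14 (Mrps18c). The most negative values were those of Mrps26 (-0.65, SE 0.444), Mrps34 (-0.40), Mrpl3 (-0.39), Mrpl9 (-0.39) and Mrpl38 (-0.34), and Mrpl44 and Mrps22 both had -0.13. Mrpl58, a release factor built into the large subunit, had 0.13, Mrps12 of the decoding site 0.27 and Mrps30 0.29.

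WT rim had only 2 libraries, and the calls depended on them and on the test. Without WT rim H874 no member was called, without WT rim H877 only Mrps14 was, and without WT core H873 only Mrps14 and Mrps6 were. DESeq2 called 17 members higher (21.8%) and 0 lower, against 10.6% of its 17092 genes in either direction and 6.66% higher. With limma voom, and in an edgeR fit of the 2 groups alone, it was 0. Transcripts of dividing cells differed in the same comparison: 17 of 20 cell cycle genes were called higher by edgeR and 18 by DESeq2 (median log2 fold change 2.08), and their summed level was 2312 to 4398 CPM in WT core, against 1215 to 1252 CPM in WT rim. Macrophage markers had a median log2 fold change of 2.27, with 2 of 9 called higher by edgeR and 4 by DESeq2, and summed to 1596 to 4902 CPM in WT core, against 1012 to 1656 CPM in WT rim. Neutrophil markers summed to 99.6 to 293 CPM in WT core, against 55.1 to 112 CPM in WT rim, and of the 5 neither tool called any, with 1 higher at an unadjusted p under 0.05. Epithelial markers summed to 115 to 640 CPM in WT core, against 39.8 to 166 CPM in WT rim, and of the 8 tested edgeR called 0 and DESeq2 called 1 higher, with 1 higher at an unadjusted p under 0.05. The part of cell division and of other cell types in the members' differences was not tested.

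In KO, no member was called between core and rim by edgeR or by DESeq2, against 0% and 0.183% of all genes. The fold changes leaned to core again: 64 of 78 were positive, with a median log2 fold change of 0.16, against 0.03 over all genes tested. An unadjusted p under 0.05 was reached by 12 members higher (15.4%), against 3.43% of all genes, and by 2 lower (2.56%), against 4.52%. Groups without overlap were found for 2 members higher in core, Mrpl19 and Mrpl27 (2.56%), against 0.8% of all genes, and for none lower, against 0.8%. The medians were 0.13 for the large and 0.17 for the small subunit. Cell cycle genes had a median log2 fold change of 0.52, with 0 of 20 called by edgeR or DESeq2 and 9 higher at an unadjusted p under 0.05. They summed to 2110 to 4242 CPM in KO core, against 1711 to 2680 CPM in KO rim. B and plasma markers had a median of -1.61, with 5 of the 6 negative and 1 positive. By edgeR or DESeq2 0 of 6 were called, and 4 were lower at an unadjusted p under 0.05. Their sums were 193 to 3881 CPM in KO core, against 311 to 1313 CPM in KO rim. The part of either list in the members' values was not tested.

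By p, Mrpl19, a large-subunit protein with a bacterial relative, stood first in KO. It had 40.1 to 51.7 CPM in KO core (median 46.1), against 38.2, 30.1, 33.6 and 33.3 CPM in KO rim (log2 fold change 0.43, SE 0.117, edgeR adjusted p = 0.620). Mrpl27, whose bacterial relative reaches the peptidyl transferase centre, had 27.9 to 35.4 CPM in KO core (median 30.2), against 27.8, 19.1, 21.1 and 24.9 CPM in KO rim (0.40, SE 0.138). The lowest core library lay just above the highest rim library for both genes.

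Mrpl14, which faces the small subunit, had 17.5 to 24.6 CPM in KO core (median 21), against 12.5, 11.9, 8.31 and 18.7 CPM in KO rim (log2 fold change 0.70, SE 0.209). Mrpl50 and Mrpl9, also of the large subunit, pointed the other way. Mrpl50 had 25.95 to 40.7 CPM in KO core (median 33.7), against 34.99, 47.9, 57.6 and 49.96 CPM in KO rim (-0.52, SE 0.154). Mrpl9 had 55.3 to 74.1 CPM in KO core (median 62.0), against 76.8, 95.7, 98.6 and 70.4 CPM in KO rim (-0.42, SE 0.131). Mrpl27, Mrpl14, Mrpl50 and Mrpl9 all had an edgeR adjusted p of 0.620. In WT, Mrpl9 had 67.3, 54.7, 72.5, 54.98 and 73.8 CPM in core, against 85.3 and 83.8 CPM in rim (-0.39, SE 0.168, edgeR adjusted p = 0.231). The 4 members called in WT had log2 fold changes of 0.29 (Mrps14), 0.11 (Mrps6), 0.41 (Mrpl51) and 0.30 (Mrpl42) in KO.

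In the core, the deletion of endothelial PD-L1 went with no called change of a member by edgeR or DESeq2, against 0% and 0.0565% of all genes. The members centred close to 0: the median log2 fold change of KO core over WT core was -0.06, against -0.01 over all genes tested, with 22 of 78 positive. It was -0.105 without WT core F164, -0.0378 without KO core F318 and -0.0105 without the male and mixed libraries, and upper-quartile scaling left 16 positive. Below an unadjusted p of 0.05 were 3 members higher (3.85%), against 3.74% of all genes, and 1 lower (1.28%), against 2.43%. No member's groups failed to overlap, against 0.223% of all genes higher and 0.174% lower.

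The smallest p belonged to Mrpl40, a protein of the central protuberance. It had 46.1 to 60.7 CPM in KO core (median 52.2), against 53.9, 77.4, 63.9, 65.3 and 62.6 CPM in WT core (log2 fold change -0.30, SE 0.115, edgeR adjusted p = 0.796). Mrps2, a small-subunit protein with a bacterial relative, had -0.35 (SE 0.191, adjusted p = 0.857), and a single KO core library, F318, stood low at 15.9 CPM. Apart from Mrpl40, the 3 members below an unadjusted p of 0.05 had positive values and wide spread in WT core.

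Mrps26, a mitochondria-specific small-subunit protein, had 29.5 to 47.7 CPM in KO core (median 33.96), against 10.7, 44.3, 19.7, 9.58 and 25.3 CPM in WT core (log2 fold change 0.78, SE 0.335). Mrpl3, a large-subunit protein with a bacterial relative, had 38.4 to 57.6 CPM in KO core (median 52.2), against 19.3, 47.3, 33.3, 18.7 and 45.4 CPM in WT core (0.57, SE 0.233). Mrps34, which in human cells is needed for a stable small subunit, had 33.8 to 42.9 CPM in KO core (median 37.5), against 26.6, 34.3, 27.8, 17.5 and 34.7 CPM in WT core (0.41, SE 0.164). All 3 had an edgeR adjusted p of 0.796, and in each the low values came from WT core libraries F164, H873 and H876.

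The same 3 libraries were the lowest for Mrps24, the most variable member. It had 9.20 to 30.9 CPM in KO core (median 15.2), against 2.99, 34.7, 5.57, 3.54 and 9.49 CPM in WT core (log2 fold change 0.76, SE 0.545, edgeR adjusted p = 0.988). In F164, H873 and H876 macrophage markers summed to 4786, 3390 and 4902 CPM, against 1664 and 1596 CPM in the other WT core libraries. T cell and CD8 markers summed to 6176, 7044 and 4790 CPM there, against 9417 and 9153 CPM. KO core F219 had 4594 CPM of macrophage markers with 9.20 CPM of Mrps24, the lowest in KO core, while KO core F322 had 3720 CPM with 29.9 CPM of Mrps24. The part of the macrophage RNA in these levels was not tested.

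In the rim, too, no member was called between KO and WT by edgeR or DESeq2, against 0% and 1.6% of all genes. The median log2 fold change of KO rim over WT rim was 0.08, against 0.01 over all genes tested, with 50 of 78 positive. Below an unadjusted p of 0.05 were 6 members higher (7.69%), against 4.67% of all genes, and 1 lower (1.28%), against 2.68%. The groups did not overlap for 10 members higher in KO rim (12.8%), against 6.86% of all genes, and for 3 lower (3.85%), Mrpl10, Mrpl38 and Mrps27, against 6.81%. The members' median was 0.168 without WT rim H874 and 0.0483 without KO rim F15.

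Mrps6 had the smallest p and, at 1.03 (SE 0.313, edgeR adjusted p = 0.411), the largest log2 fold change of KO rim over WT rim. The 4 KO rim libraries (25.95, 24.3, 42.6 and 42.7 CPM) were all above the 2 WT rim libraries (15.9 and 17.4 CPM). Mrpl34 had 19.4, 18.7, 18.04 and 22.01 CPM in KO rim, against 14.1 and 12.7 CPM in WT rim (0.54, SE 0.200, adjusted p = 0.557). Mrps14 (0.38, SE 0.152, adjusted p = 0.616) and Mrpl51 (0.56, SE 0.230, adjusted p = 0.630) followed, both without overlap. Mrpl38, of the central protuberance, had 38.5, 34.8, 41.4 and 31.7 CPM in KO rim, against 48.4 and 56.7 CPM in WT rim (-0.52, SE 0.214, adjusted p = 0.632). The comparisons KO rim against WT rim and WT core against WT rim share the 2 WT rim libraries, so their values for the same member are not independent. Macrophage markers had a median log2 fold change of 2.46, with 0 of 9 called by edgeR, 4 higher at an unadjusted p under 0.05, and 3 called higher by DESeq2. They summed to 538 to 6614 CPM in KO rim, against 1012 to 1656 CPM in WT rim. Cell cycle genes had a median of 1.14, with 0 of 20 called by edgeR, 18 higher at an unadjusted p under 0.05, and 7 called higher by DESeq2. The part of either list in the members' values was not tested.

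**Figure D5:**
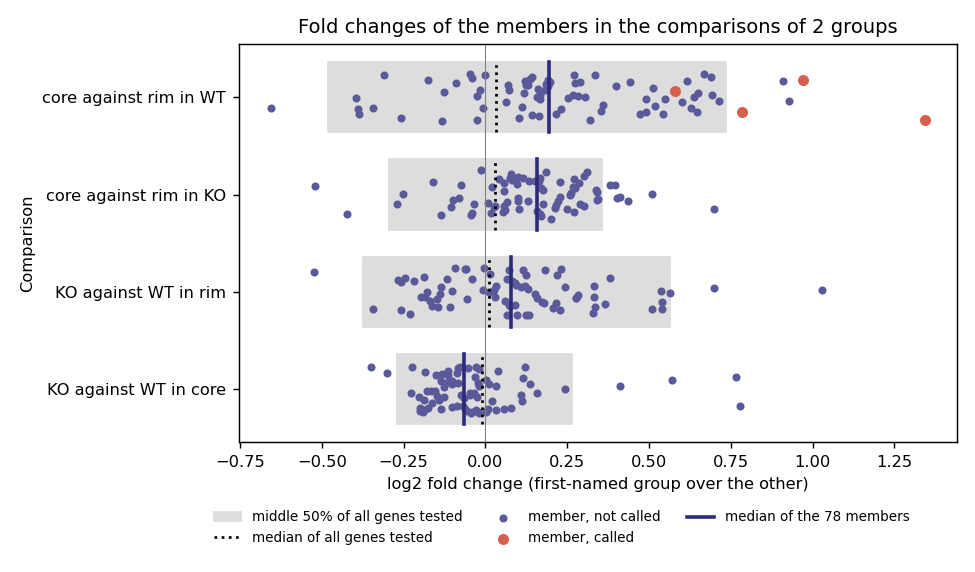
Log2 fold changes of the 78 members in the 4 comparisons of 2 groups, with the first-named group on top of the ratio, the members' median as a thick line, and the middle 50% and median of all genes tested as a grey band and a dotted line. The members' median lies right of that of all genes for core against rim in WT (0.19) and in KO (0.16) and for KO against WT in the rim (0.08), and left of it for KO against WT in the core (-0.06). The 4 called members all lie in core against rim in WT.

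Whether the effect of the deletion differed between core and rim was tested as the difference of the 2 genotype effects, core minus rim. It called 0 members by edgeR and by DESeq2, against 0% and 0.93% of all genes. The members' median was -0.14, against -0.01 over all genes tested, with 30 of 78 positive. Below an unadjusted p of 0.05 were 1 member higher (1.28%), against 2.82% of all genes, and 4 lower (5.13%), against 4.86%. Mrps6 had the smallest p: its genotype effect was -0.20 in the core and 1.03 in the rim, a difference of -1.23 (SE 0.374, edgeR adjusted p = 0.469). For Mrps14 the effects were -0.11 in the core and 0.38 in the rim, a difference of -0.49 (SE 0.184, adjusted p = 0.586). The same number is the difference of the site effects, KO minus WT, so a site effect in WT alone was not shown for any member.

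The members work with other nuclear-encoded proteins, and 88 genes of 6 lists for them had an entry in the table. These lists held 5 subunits with other names, 27 assembly and rRNA modification factors, 16 translation and mRNA-binding factors, 20 mitochondrial aminoacyl-tRNA synthetases, 12 proteins of mitochondrial DNA transcription and replication, and 9 regulators of mitochondrial genes. Among the 5 subunits, the log2 fold change in WT core over WT rim was 0.66 for Chchd1 (SE 0.241, edgeR adjusted p = 0.151), Gadd45gip1 0.29, Ptcd3 0.22, Aurkaip1 -0.02 and Dap3, a GTP-binding small-subunit protein, -0.23. None of the 5 was called in any comparison. By edgeR the 88 genes gave 3 calls, all in WT core over WT rim, where 3.86% of all genes tested were called. DESeq2 called 8 of the 88 there, against 10.6% of its genes. By either tool the lists were thus not called more often than genes in general.

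Mrrf, the factor that takes the ribosome apart after termination, had 13.8, 13.2, 11.8, 16.6 and 18.6 CPM in WT core, against 7.42 and 4.74 CPM in WT rim (log2 fold change 1.28, SE 0.283, edgeR adjusted p = 0.0214). Mrm1, which methylates the large ribosomal RNA, was lower: it had 25.1, 24.8, 35.3, 26.7 and 35.5 CPM in WT core, against 59.4 and 54.9 CPM in WT rim (-0.96, SE 0.223, edgeR adjusted p = 0.0265). Tfam, which packs mitochondrial DNA and starts its transcription, was lower as well, with 76.2, 67.3, 65.5, 78.3 and 63.5 CPM in WT core, against 115 and 97.2 CPM in WT rim (-0.60, SE 0.159, edgeR adjusted p = 0.0457). In KO, Tfam had 66.9 to 79.9 CPM in core (median 69.6), against 85.1, 85.8, 118 and 69.7 CPM in rim. The call of Tfam was lost in 13 of the 17 fits that left out 1 library each. That of Mrm1 was lost without WT core F164 and without WT core H719. The calls of Mrrf and Mrm1 also rest on the 2 WT rim libraries. The log2 fold change of Mrrf was 1.01 without WT rim H877 and 1.64 without WT rim H874. For Mrm1 it was -0.997 and -0.901. So the 3 called genes of mitochondrial gene expression outside the members did not share 1 direction.

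By list and by edgeR, 1 of 15 tested translation factors was higher in WT core than in WT rim (median log2 fold change 0.45), 1 of 27 assembly factors was lower (-0.09), and 1 of 12 genes of mitochondrial DNA transcription and replication was lower (-0.27). The synthetases (0.17) and the regulators (-0.12) had no call by edgeR. DESeq2 called 3 translation factors higher. It called 3 genes of mitochondrial DNA transcription and replication, 1 assembly factor and 1 synthetase lower. Polrmt, the mitochondrial RNA polymerase, had -0.20 (adjusted p = 0.792). Of the regulators whose motifs were searched, Nrf1 had -0.32 (SE 0.143, edgeR adjusted p = 0.246), Gabpa 0.02 (SE 0.140) and Myc 0.72 (SE 0.408, adjusted p = 0.379). Myc had 174, 169.6, 197, 115 and 151 CPM in WT core, against 156 and 40.0 CPM in WT rim, so 1 WT rim library lay within the core range and the other far below it. Yy1, whose motif was searched, had 37.3, 43.1, 31.0, 32.4 and 24.4 CPM in WT core, against 27.9 and 31.3 CPM in WT rim. Ppargc1a, a coactivator of mitochondrial genes in other tissues, stood between 0 and 2.64 CPM in all libraries. Transcripts of the mitochondrial genome itself were not analysed here.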

How the data were processed

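RNA was extracted with the Qiagen RNeasy Micro Kit and libraries were made with the Illumina TruSeq RNA kit, per the labels' protocols. The authors deposited raw counts per gene symbol with no normalization. Per the submitters' processing notes, the tools were featureCounts, Subread 2.0.0, HISAT2, Bowtie2 2.4.5 and cutadapt 3.2, with the builds GRCm38 and mm10. The sources used here do not give their order, settings or strand handling.

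The counts were fitted with edgeR 4.0.16 (R 4.3.3): filterByExpr kept 20137 genes, libraries were scaled by TMM factors, and 1 quasi-likelihood fit with 4 group means took all 17 libraries, so that WT rim shared the spread of the others. A call needs an adjusted p under 0.05 (two-sided F test, Benjamini-Hochberg over all genes tested). DESeq2 1.42.0, limma 3.58.1 voom with quality weights, other scalings and filters, a block, and fits without each library were alternatives. SE is the log2 fold change divided by the square root of F. CPM used TMM library sizes, and log2 CPM a prior count of 2. Lengths came from GENCODE. Without molecular identifiers, reads do not stand for separate molecules.

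The members, the gene lists and the rule for named genes were chosen with earlier results of these data known. Named were called members, else the 5 smallest p per comparison, members with known roles, and the 5 extremes of level and of variation. The script was tested on simulated counts. No deposited column was left without a sample.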

Additional observations from a re-analysis of the deposited data

Results flagged for a closer look

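Among 126 sets of 1 member, or of the members' median, in a group of 4 to 6 libraries, 5 held a library far from the rest. The rule used, Dixon's at 95%, finds about 1 in 20 by chance, so 5 is no more than that rate gives. Mrpl21 had 42.5 CPM in KO core F318, while the other KO core libraries lay between 51.0 and 53.4 CPM. Mrpl42, called higher in WT core than in WT rim, had 72.2 CPM in WT core F164, and the other WT core libraries lay between 80.6 and 82.9 CPM. Mrpl48 had 19.7 CPM in KO rim F322, against 25.3 to 25.9 CPM in the other KO rim libraries. Mrps24 had 34.7 CPM in WT core H719, with the other WT core libraries between 2.99 and 9.49 CPM. The median log2 CPM of the members was 5.49 in KO core F86, and between 5.21 and 5.30 in the other KO core libraries. KO core F86 also had the highest summed level of cell cycle genes in KO core (4242 CPM), and the part of cell division in this level was not tested.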

How the results depend on the processing

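The count of members called in WT core over WT rim, 4 by edgeR, depended on the processing. It was 17 with DESeq2, 10 when the genes tested were those averaging 1 CPM or more, 1 without the male and mixed libraries, and 0 with limma voom or with the 2 groups alone. DESeq2 size factors and upper-quartile scaling gave 4, and no filter gave 3. Over the fits that left out 1 library each, it ran from 0 (without WT rim H874) to 6 (without KO rim F322). The causes were not tested, beyond the fewer genes or libraries of these fits. No member was called in the other comparisons under any of these alternatives. Genes called over the whole table in WT core over WT rim numbered 777, against 1820 with DESeq2, 1031 on genes averaging 1 CPM or more, 313 without the male and mixed libraries, 139 with limma voom and 91 with the 2 groups alone. Of the 88 genes of the 6 other lists, 3 were called there by edgeR, 8 with DESeq2, 6 on genes averaging 1 CPM or more, 1 without the male and mixed libraries, and 0 with limma voom or with the 2 groups alone. The members' median log2 fold change of KO rim over WT rim lay between 0.0483 and 0.168 with 1 library left out, and that of KO core over WT core, -0.0644, lay between -0.105 and -0.0378, was -0.0410 with a replicate block on shared identifiers and -0.0105 without the male and mixed libraries.

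Mrpl51 in KO core over WT core, at 0.00400, turned to -0.00427 with DESeq2 size factors, -0.0279 with upper-quartile scaling, -0.00404 with DESeq2, -0.0489 with limma voom, -0.00575 on genes averaging 1 CPM or more and -0.0125 with the 2 groups alone. It lay between -0.0535 and 0.0398 with 1 library left out. Mrps6 in KO core over KO rim lay between -0.0238 and 0.241 with 1 library left out. Identifiers F322, F86 and O appear in KO core and KO rim. Their libraries' deviations correlated at 0.0721, 0.0449 and 0.0818, each higher than with the other identifiers, but the labels do not say what they mark. A replicate block on them gave 3 members called in WT core over WT rim, without Mrpl42, and 0 in the other comparisons. A mean of at least 5 CPM would leave 77 members, without Mrps30. No member had fewer than 51 counts in a library.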
